A study of Mus musculus with 24 samples.

Results

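The mitochondrial genome of the mouse carries 37 genes, and the counts of these genes in mammary fat are described here. They were taken as the rows of the deposited matrix whose identifier maps to a symbol beginning with mt-, which gave 37 of 39017 genes. All 37 lie on the mitochondrial chromosome (chrM). They comprise 13 protein genes, 2 ribosomal RNAs (rRNAs) and 22 transfer RNAs (tRNAs). Mitochondrial DNA is copied into long precursor RNAs from both strands, and many of these are cut apart at the tRNAs that sit between the other genes. The proteins are core subunits of respiratory chain complexes I, III and IV and of the ATP synthase (complex V), the rRNAs form the ribosome that translates them, and the tRNAs carry its amino acids. The remaining subunits, and the enzymes that transcribe, cut and degrade these RNAs, are encoded in the nucleus. In white fat, mitochondria burn fatty acids and supply building blocks for lipid synthesis, and in brown fat they also make heat.

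The study examined fat near a breast tumor and far from it in lean and obese animals. Flash-frozen subcutaneous fat from the 4th mammary gland of C57BL/6 mice gave total RNA, which was depleted of rRNA before sequencing. Each of the 24 libraries belongs to 1 of 6 groups of 4, and the labels distinguish the groups by diet and by position only. Chow no-tumor and HFD no-tumor fat is labelled as having no tumor, on Chow or on the diet labelled HFD. Chow contralateral and HFD contralateral fat is labelled contralateral, and Chow peritumoral and HFD peritumoral fat is labelled peritumoral. All 6 groups share the strain and the tissue, and no other allele or agent is named for any of them. The sources used here give no tumor line, age or time on diet. Nor do the labels tie each replicate to its own animal, so a p-value speaks only for the variation among these libraries, part of which may be technical.

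Library totals ran from 9130125 to 18204747 counts. Markers of the mature adipocyte were abundant in every library, with 10 of 10 in the table, none at 0 and a summed level of 10380 to 24420 CPM (counts scaled to a common library size with TMM factors over all 24 libraries). Of 8 brown and beige adipocyte markers none was at 0 in all libraries, with a summed level of 13.47 to 66.74 CPM. Ucp1, the heat-making carrier of brown fat, reached at most 1.63 CPM. Of 12 skeletal muscle markers none was at 0 in all libraries, and their sum exceeded 1000 CPM in 5 libraries, all on Chow (1 no-tumor, 3 contralateral and 1 peritumoral). In Chow contralateral replicate 2 the ribosomal-RNA-like Gm42418 took 11.37% of counts. It stood at 197, 128400, 8367 and 4185 CPM in Chow contralateral replicates 1 to 4, and at 961.8 CPM or less in every library of the other groups. Counts of called genes that rest on the 5 muscle-bearing libraries are given with values without them or with the muscle marker mean as a covariate.

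Counts fell very unevenly over the 37 genes. The rRNAs mt-Rnr1 (the small subunit RNA) and mt-Rnr2 (the large subunit RNA) had 18479454 and 78044708 counts over the 24 libraries, even though the libraries are described as depleted of rRNA. The labels do not state whether the depletion covered the mitochondrial rRNAs. Of the 13 protein genes 7 had at least 50 counts in every library: mt-Nd1, mt-Nd2, mt-Nd4, mt-Nd5 and mt-Nd6 of complex I, mt-Cytb of complex III and mt-Co1 of complex IV. The complex I gene mt-Nd3 had 2 to 14 counts per library, and mt-Co2 of complex IV had 2 counts in all. Another 4 protein genes were listed at 0 in every library: mt-Co3 of complex IV, mt-Nd4l of complex I, and mt-Atp6 and mt-Atp8 of the ATP synthase. Among the 22 tRNAs 11 were listed at 0 in every library: mt-Ti, mt-Tw, mt-Ty, mt-Ts1, mt-Td, mt-Tk, mt-Tr, mt-Th, mt-Ts2, mt-Tl2 and mt-Tt. Another 9 had between 1 and 24 counts over all libraries: mt-Te, mt-Tn, mt-Tm, mt-Tq, mt-Tl1, mt-Tf, mt-Tv, mt-Ta and mt-Tg. The exceptions were mt-Tc, the cysteine tRNA, with 115 to 370 counts per library, and mt-Tp, the proline tRNA, with 102 to 237. In total 15 of the 37 genes were listed at 0 throughout, and 11 could be tested in all 9 comparisons.

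The thinly counted protein genes lie side by side, and a near-complete copy of that stretch sits in the nuclear genome. Sequences are those of the GENCODE M21 transcripts (GRCm38, the mm10 build), and all 37 transcript lengths equal the exon bases of the matrix. Each member was cut into every possible window of 50 bases, and each window was looked for in all other GENCODE transcripts on both strands. All windows of mt-Co2 (100%) were found in a nuclear transcript, as were 99.9% of mt-Co3, 99.5% of mt-Atp6, 98.8% of mt-Nd4l and 98.0% of mt-Nd3. The share was 62.2% in mt-Nd4, 51.1% in mt-Co1, 8.2% in mt-Nd2, 7.6% in mt-Nd5 and 1.0% in mt-Rnr2. No window was shared for mt-Nd1, mt-Nd6, mt-Cytb, mt-Rnr1, mt-Atp8 or any tRNA. Only annotated transcripts were searched, so a copy in an unannotated stretch would be missed. This holds for mt-Atp8 and for the tRNAs mt-Tk, mt-Tg and mt-Tr, which lie between the thinly counted protein genes. The copies of mt-Co2, mt-Atp6, mt-Co3, mt-Nd3, mt-Nd4l, the end of mt-Co1 and the start of mt-Nd4 are annotated pseudogenes. They lie in a row on the minus strand of chromosome 1. The longest copies of mt-Nd2 and mt-Nd5 lie on chromosomes 2 and 13. The shared windows of mt-Rnr2 were in Gm20594, annotated as protein-coding. Another pseudogene, Gm13340, held 27.5% of the mt-Co1 windows. Gm28661 (chr1:24614885-24615565) matched mt-Co2 over 681 of 681 bases, and Gm28437 (chr1:24613189-24613971) matched mt-Co3 over 783 of 783. Gm10925 (chr1:24613974-24614651) matched mt-Atp6 over 678 of 678 bases, and Gm28439 (chr1:24611535-24612410) matched mt-Nd4 over its first 876. The annotated copies next to mt-Atp8 are those of mt-Co2 and mt-Atp6, and mt-Atp8 itself was at 0 without an annotated copy of its own. The sources used here do not state whether reads that fit several places were dropped, and the part of this in the low counts was not tested.

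The sequences below show how far a member can be told from its copy at the level of single bases. For mt-Nd3 (chrM:9459-9806) and its copy Gm28438 (chr1:24612775-24613119) the first 60 bases are given, with capitals at the only difference in 345 aligned bases, T3C (base 1 is the first base of the member):
mt-Nd3: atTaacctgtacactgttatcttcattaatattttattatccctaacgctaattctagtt
Gm28438: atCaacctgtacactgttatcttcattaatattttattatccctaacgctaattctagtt
A 60-base read from either would differ at base 3 only, and a read that starts beyond it would not differ at all. For mt-Co1 (chrM:5328-6872) the copy Gm29216 (chr1:24615706-24616197) begins at base 1054 and carries 6 differences in 492 bases, all near its start, at T1056A, C1057T, A1059G, A1060G, C1062A and A1066T (capitals):
mt-Co1 from base 1054: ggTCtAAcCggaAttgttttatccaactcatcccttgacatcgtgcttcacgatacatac
Gm29216 from base 1: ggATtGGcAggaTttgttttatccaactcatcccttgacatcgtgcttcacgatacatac
The mt-Nd4 copy ends inside the gene, and the 60 bases around that end are given, with capitals for the bases outside it:
mt-Nd4 from base 847: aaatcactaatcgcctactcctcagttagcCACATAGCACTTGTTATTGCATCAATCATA
For mt-Nd2, a well counted gene, the copy Gm13339 on chromosome 2 (chr2:22590024-22590533) differed at 17 of 510 bases, of which T579C and T603A fall in the 60 bases given (capitals):
mt-Nd2 from base 570: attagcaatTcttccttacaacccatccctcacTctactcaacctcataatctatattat
Gm13339 from base 42: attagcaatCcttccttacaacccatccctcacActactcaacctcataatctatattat
Gm13339 had 12 counts in all 24 libraries against 443093 for mt-Nd2.

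The tRNAs that were counted are given with their anticodon in capitals, found as the middle 3 bases of a 7-base loop closed by a stem of 5 pairs. Both mt-Tc (chrM:5192-5257) and mt-Tp (chrM:15356-15422) lie on the minus strand, and mt-Tn (asparagine, chrM:5089-5159), with 14 counts in all against 6220 for mt-Tc, is given for contrast. It lies on the same strand as mt-Tc and is separated from it by a gap of 32 bases, which is known as the origin of light-strand replication. mt-Tp is the last gene before the control region.
mt-Tc: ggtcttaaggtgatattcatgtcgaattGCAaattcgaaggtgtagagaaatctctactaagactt
mt-Tp: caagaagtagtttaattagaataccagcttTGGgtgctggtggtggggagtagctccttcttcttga
mt-Tn: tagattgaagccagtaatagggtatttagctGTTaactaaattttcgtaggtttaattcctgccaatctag
In a library of long RNA fragments, counts on so short a gene can come from a mature tRNA, a precursor or RNA of the opposite strand. The sources used here name no strand setting for the counts, so these cannot be told apart, and the same holds for mt-Nd6, which overlaps mt-Nd5 by 14 bases on the opposite strand.

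**Figure D1:**
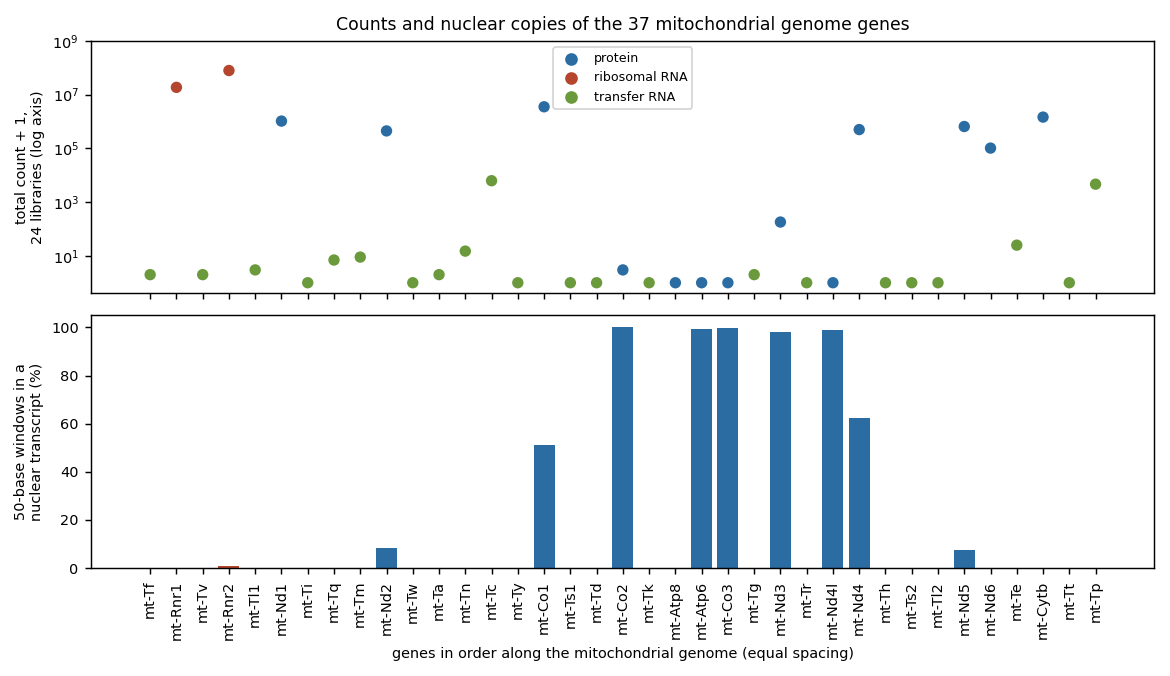
Total counts and nuclear copies of the 37 genes in their order along the mitochondrial genome. The upper plot gives total count + 1 over 24 libraries on a log axis, the lower plot the percentage of 50-base windows found in a nuclear transcript, and colour gives the class. The genes from mt-Co2 to mt-Nd4l have at most 180 counts in all, and 5 of the 6 protein genes among them have 98.0% or more of their windows in a nuclear transcript.

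Levels per length kept nearly the same order in all libraries. Per 1000 exon bases, the median of 24 libraries was 128700 CPM for mt-Rnr2, 48990 for mt-Rnr1, 6038 for mt-Co1, 3434 for mt-Cytb and 2923 for mt-Nd1. It was 1091 for mt-Nd2, 966 for mt-Nd4, 930.8 for mt-Nd5 and 516.6 for mt-Nd6, on the same scale. Among the 7 counted protein genes mt-Co1 ranked 1st and mt-Nd6 7th in each of the 24 libraries, and mt-Cytb and mt-Nd1 held ranks 2 and 3. mt-Nd2, mt-Nd4 and mt-Nd5 exchanged ranks 4 to 6, so their order does not separate beyond the spread over libraries. Counted per 1000 unshared 50-base windows, mt-Nd4 rose to 2652 CPM, above the 1247 of mt-Nd2 and 1035 of mt-Nd5, and mt-Co1 to 12760. This scale assumes that shared windows gave no counts, which was not tested, and it depends on the window. With windows of 75 bases the shared part was 39.8% in mt-Co1 and 61.5% in mt-Nd4, against 51.1% and 62.2% with 50.

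The clearest difference between diets was in fat without a tumor. On HFD 9 of the 11 tested genes were lower than on Chow and none was higher, with both rRNAs and all 7 counted protein genes among the 9. Of all 15827 genes tested, 11.3% were called lower and 13.6% higher (edgeR, adjusted p under 0.05). The median log2 difference was -0.50 over the 11 genes and -0.02 over all genes. The 11 genes come from shared precursor RNAs, so they are not independent of each other. Fewer mitochondria-rich cells and less RNA per cell cannot be told apart in bulk tissue. For the rRNAs, uneven rRNA depletion between libraries cannot be told apart from these either, and its part was not tested.

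mt-Rnr2 stood at 249500, 334600, 290200 and 259700 CPM in Chow no-tumor fat and at 160400, 175200, 172300 and 172100 on HFD. The groups did not overlap, and the lowest Chow library was well above the highest HFD library. The log2 difference was -0.77 ± 0.11 (SE, n = 4 and 4), with an edgeR adjusted p of 0.00032. mt-Rnr1 went from 64560 ± 12800 to 40040 ± 4292 CPM (SD, n = 4), a log2 difference of -0.72 ± 0.14 (edgeR adjusted p = 0.00328), again without overlap. Together the rRNAs took 29.65% to 34.77% of counts in Chow no-tumor libraries and 20.54% to 22.01% on HFD.

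Among the protein genes, mt-Co1, the catalytic core subunit of cytochrome c oxidase, stood at 11010, 14020, 11100 and 10870 CPM on Chow and at 7397, 8454, 8462 and 8055 on HFD. Its groups did not overlap, and its log2 difference was -0.57 ± 0.10 (edgeR adjusted p = 0.00125). mt-Cytb, the cytochrome b of complex III, stood at 4645, 6263, 5001 and 4881 CPM on Chow and at 3425, 3864, 3939 and 3717 on HFD. It too separated the diets, by -0.51 ± 0.10 (edgeR adjusted p = 0.00277). Of the complex I genes, mt-Nd5 was lower by -0.57 ± 0.11, mt-Nd4 by -0.50 ± 0.10 and mt-Nd6 by -0.40 ± 0.08 on the log2 scale (edgeR adjusted p of 0.00281, 0.00257 and 0.00337). The smallest called differences were those of mt-Nd2 (-0.35 ± 0.09, edgeR adjusted p = 0.0124) and mt-Nd1 (-0.26 ± 0.09, edgeR adjusted p = 0.0466), 2 complex I genes that lie next to each other behind the rRNAs. All 9 called genes had groups without overlap. The share of such genes among all genes tested was not computed, so this adds nothing to the calls. The mt-Nd1 call was lost in 7 of the 8 fits that left out 1 library, with adjusted p up to 0.117. Without Chow no-tumor replicate 3, which carries muscle, 8 genes were called lower, all but mt-Nd1 of the 9, where 8.29% of all genes were. mt-Rnr2 stood at -0.76 ± 0.12 in that fit (edgeR adjusted p = 0.00172).

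The counted tRNAs did not share this pattern. mt-Tc stood at 16.72, 17.13, 16.89 and 19.82 CPM on Chow and at 15.65, 16.43, 18.06 and 19.46 on HFD in no-tumor fat. The groups overlapped, and the log2 difference was -0.05 ± 0.09 (edgeR adjusted p = 0.746). mt-Tp differed by -0.19 ± 0.09 (edgeR adjusted p = 0.161). Beside these values, summed mature adipocyte markers were 13050 to 15820 CPM in Chow no-tumor and 18970 to 20230 in HFD no-tumor libraries, and 6 endothelial markers were 386.1 to 450.6 and 684.4 to 709.4 CPM. Summed markers of mammary epithelium (8 of 8 in the table, none at 0 in all libraries) went the other way, from 409.6 to 657.2 CPM on Chow to 325.7 to 367.2 on HFD, without overlap. The part of these cell types in the lower mitochondrial counts was not tested.

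**Figure D2:**
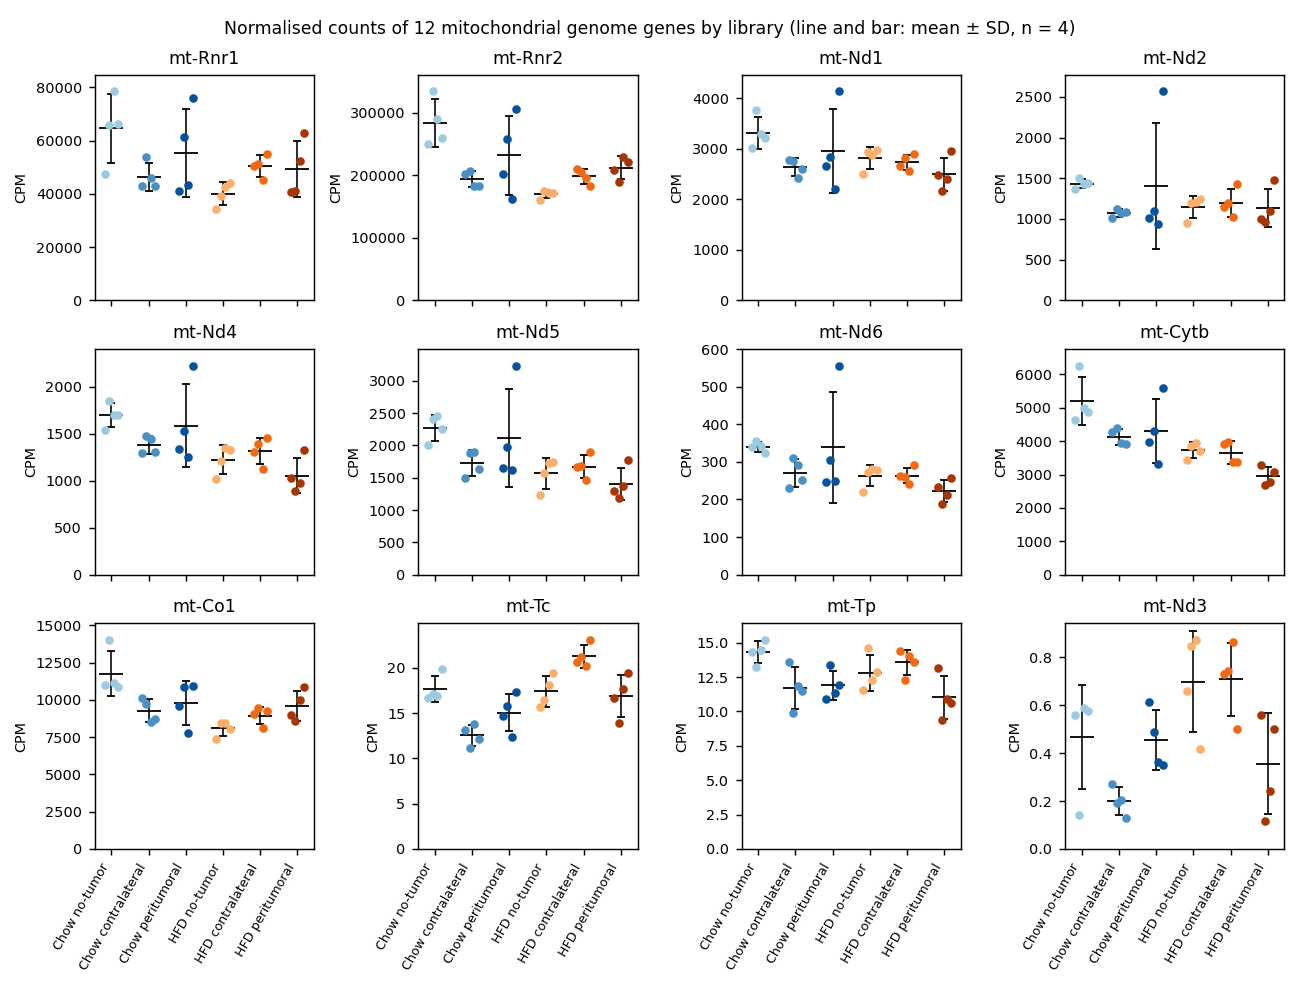
Normalised counts (CPM, linear axis from 0) of the 12 members that could be tested, by group. Points are libraries, and the line and bar give mean ± SD of 4. In the mt-Rnr2 plot the 4 Chow no-tumor libraries, from 249500 to 334600, lie above the 4 HFD no-tumor libraries, and in the mt-Tc plot the HFD contralateral libraries, from 20.2 to 23.08, lie above the Chow contralateral ones.

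In contralateral fat the diets differed in 1 of 11 genes, the cysteine tRNA mt-Tc, which was higher on HFD, and no gene was lower. Across all genes 24.5% were called higher and 24.8% lower in this comparison, so 1 of 11 is below the background. That background is itself unstable: 4.3% and 4.83% were called with the muscle covariate, and 8.79% and 7.97% with the muscle-bearing libraries taken away. mt-Tc stood at 13.09, 11.11, 13.77 and 12.15 CPM in Chow contralateral and at 20.64, 21.23, 20.2 and 23.08 in HFD contralateral libraries. The groups did not overlap, and the log2 difference was 0.72 ± 0.09 (edgeR adjusted p = 5.24e-05). It was called in all 8 fits that left out 1 library (0.68 to 0.77) and stood at 0.61 ± 0.14 (edgeR adjusted p = 0.0197) with the 3 muscle-bearing Chow libraries taken away together. With the muscle marker mean as a covariate it stood at 0.56 ± 0.18 (edgeR adjusted p = 0.0754), which missed the threshold. The 10 other genes had log2 differences from -0.22 (mt-Cytb) to 0.17 (mt-Tp), among them -0.00 ± 0.11 for mt-Rnr2, -0.09 ± 0.10 for mt-Co1 and 0.01 ± 0.09 for mt-Nd1.

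With the summed counts of the 7 protein genes as the total, in place of all counts, mt-Tc stood at 512.4 to 701.8 CPM in Chow contralateral and 1024 to 1129 in HFD contralateral libraries. The same measure was 567.9 to 802.9 in Chow no-tumor and 842.7 to 1006 in HFD no-tumor libraries, and 591.1 to 719.6 and 831.8 to 934.8 in Chow and HFD peritumoral libraries. The HFD libraries were thus above the Chow libraries at each position. In no-tumor fat this came with lower protein gene counts on HFD, and in contralateral fat with higher mt-Tc counts.

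The complex I gene mt-Nd3 was also higher in HFD contralateral than in Chow contralateral libraries, at 0.4989 to 0.8623 against 0.1279 to 0.2713 CPM, without overlap. These are at most 14 counts per library, and mt-Nd3 did not pass the filter on low counts in this comparison. Without that filter its log2 difference was 1.80 ± 0.47 (edgeR adjusted p = 0.00424). Since nearly all of its sequence is shared with Gm28438, which was not analysed here, RNA of the copy and of mt-Nd3 cannot be told apart at this count.

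In peritumoral fat 3 of the 11 genes were lower on HFD and none was higher, against 17.2% of all genes called lower and 16.4% called higher. mt-Cytb stood at 3967, 4304, 3319 and 5590 CPM in Chow peritumoral and at 3289, 2683, 2787 and 3072 in HFD peritumoral libraries. The groups lay next to each other without overlap, and the log2 difference was -0.62 ± 0.18 (edgeR adjusted p = 0.0231). mt-Nd4 differed by -0.67 ± 0.20 (edgeR adjusted p = 0.0275) and mt-Nd5 by -0.67 ± 0.23 (edgeR adjusted p = 0.0459), both with groups that overlapped. mt-Nd6 missed the threshold at -0.69 ± 0.25 (edgeR adjusted p = 0.0573). mt-Co1, in contrast to mt-Cytb, was at 9776 ± 1483 CPM on Chow and 9602 ± 1021 on HFD, a difference of -0.10 ± 0.17 (edgeR adjusted p = 0.65).

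Chow peritumoral replicate 4, the library with the lowest total, was the highest of its group for all 7 protein genes. It had 2570 CPM of mt-Nd2 where the rest of its group had 942 to 1099, and 555.9 CPM of mt-Nd6 where they had 245.2 to 305.2. Without it 1 gene was called lower in peritumoral fat, as without HFD peritumoral replicate 2. Without Chow peritumoral replicate 2 or HFD peritumoral replicate 3 no mitochondrial gene was called. Calls over all genes were 5843 without Chow peritumoral replicate 4 and 4431 without HFD peritumoral replicate 2. They were 3790 without Chow peritumoral replicate 2 and 4234 without HFD peritumoral replicate 3, against 5353 in the main fit. Of these fits, only the one without Chow peritumoral replicate 4 had more all-gene calls than the main fit. HFD peritumoral libraries also had more macrophage marker RNA, 2349 to 3206 CPM over 8 genes against 1095 to 1902 on Chow, and its part in the differences was not tested.

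Between peritumoral and contralateral fat on Chow none of the 11 genes was called, and none of all 16057 genes was (0.0% higher and 0.0% lower). At an unadjusted p under 0.05 edgeR had 1 of the 11 genes, mt-Tc (0.27 ± 0.12), and 1381 of all genes, and DESeq2 called 0 of the 11 and 19 of all genes. With the muscle-bearing libraries taken away, edgeR again called 0 of the 11, and of all genes 0 were higher and 30 lower. All 11 log2 differences were above 0, from 0.03 (mt-Tp) to 0.41 (mt-Nd2), with SE up to 0.33. Differences of that size are within the spread of the Chow peritumoral libraries.

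On HFD, peritumoral fat had 1 of 11 genes lower than contralateral fat, mt-Tc, and none higher. Of all genes 12.7% were called lower and 16.8% higher. mt-Tc stood at 16.64, 13.86, 17.61 and 19.38 CPM in HFD peritumoral libraries, each below the lowest contralateral library at 20.2, and the log2 difference was -0.35 ± 0.11 (edgeR adjusted p = 0.0389). The call held in 2 of the 8 fits that left out 1 library, with adjusted p up to 0.104. It was lost with no composition factors, with no filter on low counts and with the muscle covariate (-0.27 ± 0.10, edgeR adjusted p = 0.0685). mt-Cytb did not overlap either, at 2683 to 3289 against 3361 to 3976 CPM, but missed the threshold at -0.32 ± 0.13 (edgeR adjusted p = 0.0823). mt-Co1 was 0.09 ± 0.14 and mt-Rnr2 0.09 ± 0.19 on the same scale.

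The ratio of mt-Co1 to mt-Cytb counts set the HFD peritumoral libraries apart from most others. It was 2.731, 3.202, 3.58 and 3.534 there. In the 20 other libraries it ran from 1.955 to 2.748, with HFD contralateral replicate 4 at 2.748 as the only one that reached into the HFD peritumoral range. mt-Co1 made up 49.06% to 52.97% of the counts of the 7 protein genes in HFD peritumoral libraries and 37.36% to 47.64% in the 20 others. mt-Cytb made up 14.15% to 17.97% in HFD peritumoral libraries. Chow libraries had 18.8% or more and HFD contralateral libraries 16.35% to 19.57%. mt-Nd6, the only protein gene of its strand, was set against the counts of the 6 other counted protein genes. It was 1.136% to 1.284% in HFD peritumoral and 1.274% to 1.435% in HFD contralateral libraries, ranges that overlap. This share did not set HFD peritumoral libraries apart from Chow libraries, which ran from 1.097% (Chow contralateral replicate 1) to 1.938% (Chow peritumoral replicate 4). These ratios are given as descriptions, with no test.

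**Figure D3:**
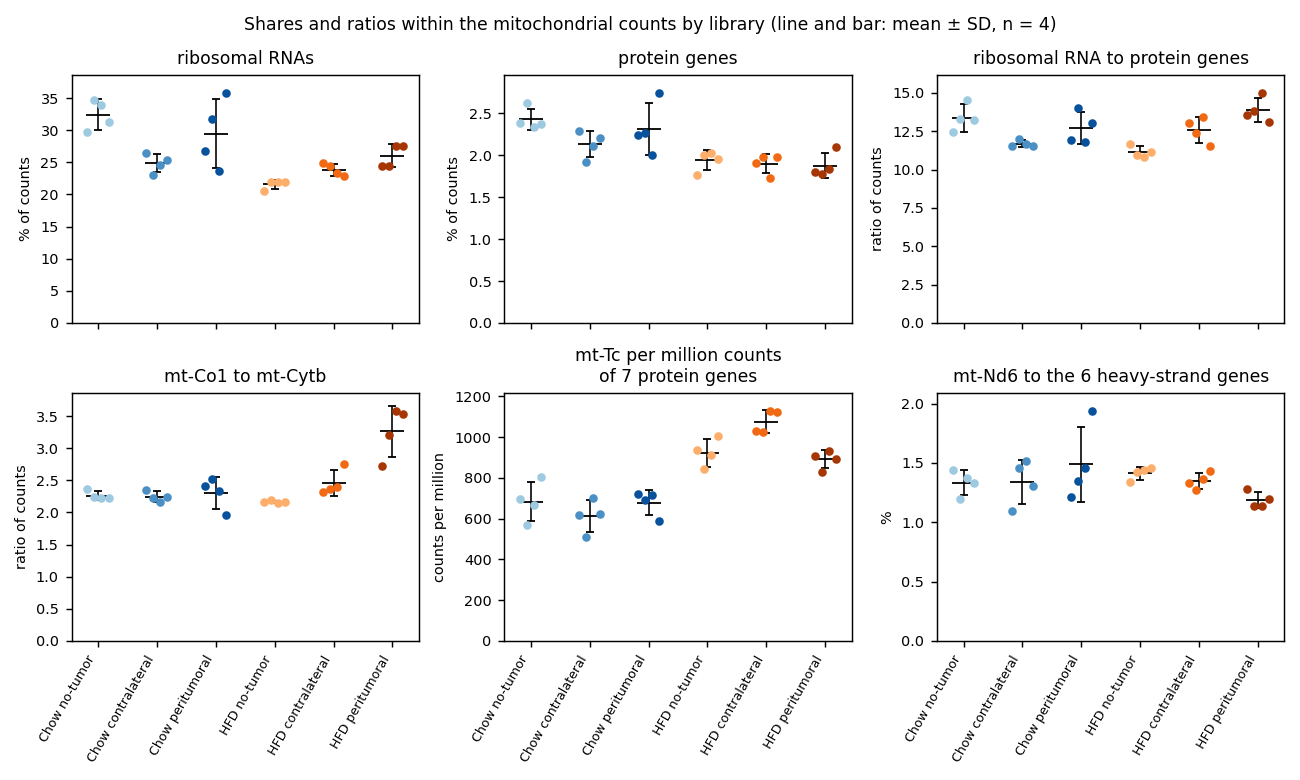
Shares and ratios of mitochondrial counts by group (linear axes from 0). Points are libraries, and the line and bar give mean ± SD of 4. The mt-Co1 to mt-Cytb ratio is 2.731 to 3.58 in HFD peritumoral libraries, and the rRNA share falls from 29.65% or more in Chow no-tumor to 22.01% or less in HFD no-tumor libraries.

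Fat of tumor-bearing Chow mice, taken from the contralateral side, had lower mitochondrial counts than Chow no-tumor fat. Of the 11 genes 4 were called lower and none higher, against 3.02% of all genes called lower and 4.93% called higher. All 11 had an unadjusted edgeR p under 0.05, as had 4443 of all 15946 genes. The median log2 difference was -0.32 over the 11 genes and -0.01 over all genes. mt-Nd2 fell from 1365, 1501, 1426 and 1438 to 1008, 1122, 1079 and 1081 CPM without overlap, by -0.40 ± 0.07 on the log2 scale (edgeR adjusted p = 0.0136). mt-Rnr2 fell from 283500 ± 38210 to 193400 ± 12790 CPM, by -0.54 ± 0.12 (edgeR adjusted p = 0.0257), also without overlap. Uneven rRNA depletion between libraries cannot be told apart from a lower mt-Rnr2 level here, and its part was not tested. mt-Tc was lower by -0.47 ± 0.10 (edgeR adjusted p = 0.0187) and mt-Nd5 by -0.38 ± 0.10 (edgeR adjusted p = 0.0474).

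This comparison shares its Chow no-tumor libraries with the diet comparison of no-tumor fat. It is also the one in which muscle markers move with the groups: their sum was 25.29, 168.3, 1217 and 27.39 CPM in Chow no-tumor and 5488, 3869, 93.71 and 3092 in Chow contralateral libraries. With the muscle mean as a covariate no gene of the 11 was called, but only 95 of all 15946 genes were, against 1268 without it. The log2 difference of mt-Rnr2 was -0.65 ± 0.15 with the covariate (edgeR adjusted p = 0.0859). With the muscle-bearing libraries taken away together, 1 Chow contralateral library remained, assumed to vary like the others, and mt-Rnr2 stood at -0.62 ± 0.36 (edgeR adjusted p = 0.724). DESeq2 called 10 of the 11 genes and 1567 of all 15946 genes. Leaving out Chow no-tumor replicate 3, Chow contralateral replicate 1 or Chow contralateral replicate 3 left 2 calls, and leaving out Chow contralateral replicate 4 left 1. All-gene calls also fell in these fits, to 375, 383, 573 and 426 in that order, against 1268 with all libraries.

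On HFD none of the 11 genes was called between contralateral and no-tumor libraries, nor was mt-Nd3, which passed the filter here, where 2.72% of all genes were called higher and 3.37% lower. edgeR had 3 genes at an unadjusted p under 0.05, mt-Rnr1, mt-Rnr2 and mt-Tc, and 3633 of all 15718 genes. DESeq2 called 2, mt-Rnr1 and mt-Rnr2, and 1292 of all genes. mt-Rnr2 stood at 160400, 175200, 172300 and 172100 CPM in HFD no-tumor and at 210300, 204900, 195400 and 182300 in HFD contralateral libraries, without overlap and opposite in direction to Chow (0.22 ± 0.09, edgeR adjusted p = 0.193). mt-Rnr1 differed by 0.33 ± 0.10 (edgeR adjusted p = 0.0806) and mt-Tc by 0.28 ± 0.08 (edgeR adjusted p = 0.0625), while mt-Cytb (-0.04 ± 0.08) and mt-Nd1 (-0.05 ± 0.08) lay near 0.

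The interaction of diet with tumor bearing asks whether the step from no-tumor to contralateral fat differed between the diets. Of the 11 genes 6 were called positive and none negative, where 9.94% of all genes were called in each direction. The effect on HFD minus the effect on Chow was 0.81 ± 0.19 for mt-Rnr1, 0.77 ± 0.14 for mt-Rnr2 and 0.78 ± 0.13 for mt-Tc on the log2 scale (edgeR adjusted p of 0.00735, 0.00178 and 0.00106, n = 4 in each of 4 groups). It was 0.48 ± 0.13 for mt-Co1, 0.48 ± 0.14 for mt-Nd2 and 0.49 ± 0.16 for mt-Nd5 (edgeR adjusted p of 0.0184, 0.0234 and 0.0403). All 11 estimates were above 0, from 0.28 for mt-Nd1 to 0.81 for mt-Rnr1. Uneven rRNA depletion between libraries cannot be told apart from a change in mt-Rnr1 or mt-Rnr2 level here, and its part was not tested. With the muscle mean as a covariate 4 genes were called, mt-Rnr2 at 0.89 ± 0.16 among them, where 1669 of all 16676 genes were called. With the muscle-bearing libraries taken away none was called, and mt-Rnr2 stood at 0.85 ± 0.22 (edgeR adjusted p = 0.0768).

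The interaction of diet with tumor side was called in none of the 11 genes and in none of all genes (0.0% higher and 0.0% lower). This depends on 1 library. Without HFD peritumoral replicate 1, edgeR called 1911 of all 16996 genes, 1112 higher and 799 lower. Of the 11 it then called mt-Tc alone (-0.58 ± 0.17, edgeR adjusted p = 0.0409). With all libraries of the 4 groups, edgeR had mt-Tc and mt-Nd4 of the 11 at an unadjusted p under 0.05, and 3349 of all 16859 genes. DESeq2 called mt-Tc alone among the members (-0.62 ± 0.18) and 727 of all genes. mt-Tc stood at -0.59 ± 0.16 (edgeR adjusted p = 0.109). mt-Nd3 passed the filter on low counts in this fit, in the interaction with tumor bearing and in the HFD comparison of contralateral with no-tumor fat only, through groups in which it was higher, so it is left out of the counts for these fits.

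**Figure D4:**
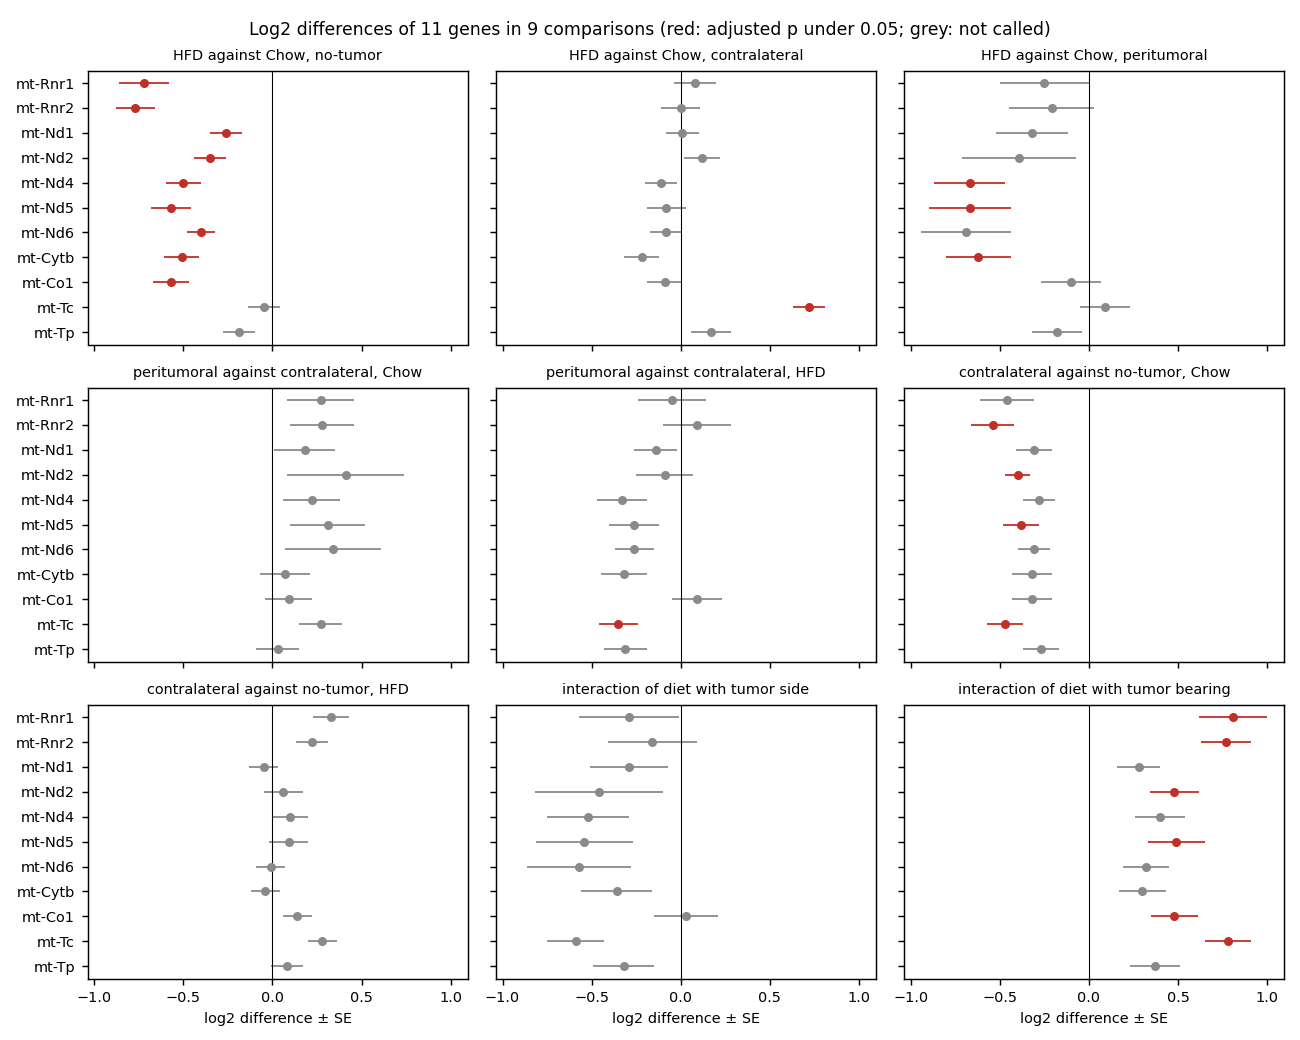
Log2 differences (± SE) of the 11 genes tested in all 9 comparisons, with red for an edgeR adjusted p under 0.05. In the plot for HFD against Chow in no-tumor fat 9 genes are red and lie between -0.77 and -0.26, and in the plot for contralateral fat mt-Tc alone is red, at 0.72.

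Nuclear genes for respiratory chain subunits were compared with their mitochondrial partners in the same fits, from a list of 55. In no-tumor fat 11 of 53 tested were lower on HFD and none higher, with a median of -0.20, where 11.3% of all genes were called lower and 13.6% higher. With the muscle covariate 5 of 53 were lower (9.43%), near the 8.09% of all genes called lower in that fit. Without Chow no-tumor replicate 3, 11 of 54 were lower (20.4%), where 8.29% of all genes were. Cox6c, a complex IV subunit, was lower by -0.41 ± 0.08 (edgeR adjusted p = 0.00398), and Ndufa1 of complex I by -0.37 ± 0.07 (edgeR adjusted p = 0.00214). In contralateral fat 27 of 54 were higher on HFD and none lower, with a median of 0.18, where 24.5% of all genes were called higher. With the muscle-bearing libraries taken away 9 of 54 were higher (median 0.22, 8.79% of all genes), and with the muscle covariate 3 of 54 (median 0.22, 4.3% of all genes). Muscle markers summed to 3092 to 5488 CPM in 3 of the 4 Chow contralateral libraries and to 57.28 to 93.36 in HFD contralateral libraries. Mature adipocyte markers summed to 12210 to 14600 and 21420 to 24420 CPM, and their part was not tested. Cox8a rose from 111.0 ± 5.32 to 153.5 ± 2.91 CPM (0.43 ± 0.05, edgeR adjusted p = 5.05e-05) and was still called with the muscle covariate (0.43 ± 0.11, edgeR adjusted p = 0.0384), while mt-Co1 of the same complex was at -0.09 ± 0.10. In peritumoral fat 1 of 54 was called between diets, Ndufa8, which was higher (0.32 ± 0.10, edgeR adjusted p = 0.033), far below the 16.4% of all genes called higher and 17.2% called lower.

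Between peritumoral and contralateral fat on HFD 14 of the 54 nuclear subunit genes were lower and none higher, with a median of -0.25, where 12.7% of all genes were called lower. With the muscle covariate 9 of 54 were lower, where 1422 of all 15627 genes were called lower. Mature adipocyte markers summed to 10380 to 18820 CPM in HFD peritumoral and 21420 to 24420 in HFD contralateral libraries, and macrophage markers to 2349 to 3206 and 1280 to 1532, and their part was not tested. Cox6a1 of complex IV was lower by -0.57 ± 0.11 (edgeR adjusted p = 0.00713) and Sdha of complex II by -0.48 ± 0.11 (edgeR adjusted p = 0.0127). In contralateral against no-tumor fat on Chow 13 of 54 were lower and none higher, where 3.02% of all genes were called lower and 4.93% higher, Atp5e of the ATP synthase among them (-0.47 ± 0.09, edgeR adjusted p = 0.0168). With the muscle covariate or with the muscle-bearing libraries taken away 0 of 54 were called, at a median of -0.36 in both, and leaving out 1 muscle-bearing library gave 2 to 5 calls. Of all genes, 95 of 15946 were called with the covariate, and 375 to 750 with 1 muscle-bearing library left out. Atp5e stood at -0.55 ± 0.11 with the covariate (edgeR adjusted p = 0.0615). The interaction with tumor bearing was positive in 31 of 54 and negative in none, where 9.94% of all genes were called positive, with Atp5e at 0.73 ± 0.12 (edgeR adjusted p = 0.000827). With the muscle covariate 24 of 54 were positive (median 0.46, 4.32% of all genes), without Chow contralateral replicate 4 17 of 54, and with the muscle-bearing libraries taken away 2 of 54 (median 0.47, 0.311% of all genes).

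Of 83 tested nuclear genes for mitochondrial transcription, RNA processing, modification, translation and DNA maintenance, 6 were lower and 1 higher on HFD in no-tumor fat, with a median of -0.10. These shares, 7.23% and 1.2%, are below the 11.3% and 13.6% of all genes, so the genes named next are single genes and not a change of the list. Trmt10c, a subunit of the RNase P that cuts the precursor at the start of tRNAs, was lower by -0.34 ± 0.10 (edgeR adjusted p = 0.021, and 0.0636 without Chow no-tumor replicate 3), and Fastkd5, which acts at processing junctions without a tRNA, by -0.64 ± 0.15 (edgeR adjusted p = 0.00978). Rexo2, a nuclease for short RNA, was higher at 48.85 ± 3.11 against 36.35 ± 4.63 CPM (0.40 ± 0.09, edgeR adjusted p = 0.00539). None of 8 transcription genes, which include Polrmt, the mitochondrial RNA polymerase, and Tfam, was called in no-tumor fat. In contralateral fat 10 of the 83 were higher and 14 lower, below the 24.5% and 24.8% of all genes, and in peritumoral fat 1 was higher and 7 lower, below 16.4% and 17.2%. With the muscle-bearing libraries taken away 2 were higher and 3 lower in contralateral fat, and without Chow peritumoral replicate 2 there were 2 and 2 in peritumoral fat. In contralateral fat Rexo2 was again higher (0.73 ± 0.07, edgeR adjusted p = 1.16e-05), and it stood at 0.71 ± 0.11 (edgeR adjusted p = 0.00669) with the muscle-bearing libraries taken away.

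Between peritumoral and contralateral fat on HFD 6 of these 83 genes were higher and 6 lower, 7.23% each, below the 16.8% and 12.7% of all genes. With the muscle covariate 1 was higher and 3 lower, where 2159 and 1422 of all 15627 genes were. Pnpt1, the polynucleotide phosphorylase that degrades mitochondrial RNA, was higher at 64.59 ± 23.55 against 30.12 ± 3.36 CPM (1.09 ± 0.23, edgeR adjusted p = 0.00953). Of 8 regulators of mitochondrial biogenesis 2 were lower on HFD in no-tumor fat, 4 were lower and 1 higher in contralateral fat, and 3 were lower in peritumoral fat. Of all genes, 11.3%, 24.8% and 17.2% were called lower in these comparisons and 24.5% higher in contralateral fat. None of the 8 was called in contralateral fat with the muscle-bearing libraries taken away. Ppargc1b, a transcriptional coactivator, was lower on HFD at all 3 positions, by -0.90 ± 0.15, -0.85 ± 0.11 and -0.97 ± 0.18 in no-tumor, contralateral and peritumoral fat (edgeR adjusted p of 0.000859, 0.00011 and 0.00407). In contralateral fat it missed the threshold with the muscle-bearing libraries taken away (-0.55 ± 0.17, edgeR adjusted p = 0.0571) and with the covariate (-0.47 ± 0.20, edgeR adjusted p = 0.161). Ppargc1a, its close relative, was lower on HFD in peritumoral fat, at 3.56 ± 1.13 against 8.60 ± 2.75 CPM (-1.35 ± 0.28, edgeR adjusted p = 0.00582).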

How the data were processed

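The values are counts of reads per gene, deposited by the authors as 1 matrix of 39017 genes by 24 libraries. The submitters' processing notes name TopHat, DESeq and mm10, and per the labels' protocols total RNA was treated with DNase and depleted of rRNA. Tool versions, the strand setting and the counting of reads that fit several places are not given in the sources used here. No library column lacked a sample. Each comparison was fitted on its own groups by the quasi-likelihood F test of edgeR 4.0.16 under R 4.3.3, robust, after TMM scaling and filterByExpr (count of 10, total of 15), with Benjamini-Hochberg adjustment over all genes kept and a threshold of 0.05. SE is the absolute log2 difference divided by the root of F. Scripts were tested on simulated data.

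The members and lists were chosen with earlier results of these data known. Every member is named. Of each nuclear list at most 2 genes per direction and comparison, those with the lowest adjusted p among the called, could be named, and nuclear copies and rRNA-derived genes whatever their values. Of the copies listed, Gm10925, Gm28437, Gm28438, Gm28439, Gm28661 and Gm29216 were not analysed here for expression. Alternatives were DESeq2 1.42.0, RLE factors, no composition factors, factors from nuclear genes, 2 other filters, all libraries in 1 fit, a replicate block, a muscle covariate and leaving out each library. Taking away the muscle-bearing libraries (over 1000 CPM) was chosen after seeing the data, as were all muscle alternatives for the nuclear lists.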

Additional observations from a re-analysis of the deposited data

Results flagged for a closer look

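Of 174 sets of 4 libraries screened, 10 had a library far from the 3 others of its group. Chance flags about 1 in 20 such sets. Chow peritumoral replicate 4 was high for mt-Nd2, at 2570 CPM and at 8.791% of the counts of the 7 protein genes. HFD contralateral replicate 4 was high in the same mt-Nd2 share, at 6.952%, and HFD peritumoral replicate 4 was high in the mt-Nd5 share, at 8.14%. HFD no-tumor replicate 1 was low in 3 measures: 220.8 CPM of mt-Nd6, an rRNA share of 20.54% of counts and a share of all 37 genes of 22.31%. In Chow no-tumor fat, replicate 4 was high for mt-Tc at 19.82 CPM, replicate 2 for mt-Co1 at 14020 CPM, and replicate 1 for the mt-Co1 to mt-Cytb ratio at 2.37.

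The step from no-tumor to contralateral fat differed between the diets by a test of the difference itself in 6 genes (HFD minus Chow, log2). It was 0.81 for mt-Rnr1, 0.77 for mt-Rnr2, 0.78 for mt-Tc, 0.48 for mt-Nd2, 0.48 for mt-Co1 and 0.49 for mt-Nd5. Muscle markers differed between the Chow groups of this test. The part of uneven rRNA depletion in the values of mt-Rnr1 and mt-Rnr2 was not tested. With the muscle covariate 4 genes were called, where 1669 of all 16676 genes were, and mt-Rnr2 stood at 0.89 ± 0.16. With the muscle-bearing libraries taken away, which leaves 1 Chow contralateral library, none was called and mt-Rnr2 stood at 0.85 ± 0.22 (edgeR adjusted p = 0.0768).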

How the results depend on the processing

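Of the 24 single-gene calls, 6 held under every alternative run, and none changed direction under any. In no-tumor fat the 9 calls between diets stayed between 6 and 9 under every alternative. All-gene calls ran from 2990 to 4733 there, against 3943 in the main fit. In contralateral fat the 1 call, mt-Tc, became 2 with DESeq2, which added mt-Cytb, and 0 with the muscle covariate. These fits called 7416 and 1453 of all 15913 genes, against 7847 in the main fit. With no filter, with all libraries in 1 fit or without any 1 of the Chow contralateral libraries, 2 were called because mt-Nd3 entered. Where a filter was used, mt-Nd3 passed it through groups in which it was higher. It is no added support, and among the 11 genes the call in these fits stayed 1. In peritumoral fat the 3 calls ranged from 0 to 4 leaving out 1 library. All-gene calls ran from 3102 to 6003 in those fits, against 5353 in the main fit. For peritumoral against contralateral fat on HFD the 1 call became 2 with DESeq2, 2 with all libraries in 1 fit, 2 with the replicate block, and 0 with no composition factors, with no filter and with the muscle covariate. All-gene calls in these 6 fits were 5294, 6332, 5144, 4401, 4003 and 3581, in the order named, against 4610 in the main fit. Leaving out 1 library gave 0 to 4, where the 4, without HFD peritumoral replicate 1, count mt-Nd3. All-gene calls ran from 2750 to 6425 there, the highest without that replicate. On Chow the 4 calls between contralateral and no-tumor fat became 10 with DESeq2, 8 with no filter, 2 with all libraries in 1 fit, 1 with no composition factors, and 0 with the replicate block, the muscle covariate or the muscle-bearing libraries taken away. DESeq2 called 1567 of all 15946 genes there, the fit with no filter 1285 of 27267, and the fit with all libraries 692 of 17201. With no composition factors 1190 of 15946 were called (24 lower), with the replicate block 356 and with the covariate 95. The main fit had 1268. Leaving out 1 library gave 1 to 5, with 1 call without Chow contralateral replicate 4. All-gene calls ran from 375 to 1986 in those fits and were 426 without that replicate. On HFD the 0 calls of contralateral against no-tumor fat became 2 with DESeq2 and 2 with no filter. They became 0 to 1 leaving out 1 library (1 without HFD no-tumor replicate 4). DESeq2 called 1292 of all 15718 genes and the fit with no filter 1109 of 26766. Leaving out 1 library called 365 to 1220 genes, against 956 in the main fit. The 0 calls for the interaction with tumor side became 1 with DESeq2 and 1 with all libraries in 1 fit. These fits called 727 of all 16859 and 333 of all 17201 genes, against 0 in the main fit. Leaving out 1 library gave 0 to 2 there (2, mt-Tc and mt-Nd3, without HFD peritumoral replicate 1). In that last fit 1911 of all 16996 genes were called. The 6 for the interaction with tumor bearing became 3 with no composition factors, 2 with all libraries in 1 fit and 0 with the muscle-bearing libraries taken away, and 5 to 8 leaving out 1 library. For that interaction, the fit without Chow no-tumor replicate 2 also counts mt-Nd3. Its all-gene calls were 3227 of 16676 with no composition factors and 1556 of 17201 with all libraries in 1 fit. They ran from 2435 to 3753 leaving out 1 library, against 3314 in the main fit. Beyond the fewer samples of the last alternatives, the cause of these changes was not tested. Leaving out composition factors moved the median of all genes from 0.01 to -0.24 (interaction with tumor bearing) and from -0.02 to 0.15 (diet in no-tumor fat). For Chow contralateral against no-tumor it moved the median from -0.01 to 0.13. It moved the genes called higher and lower from 2160 and 1783 to 4064 and 669 (diet, no-tumor), from 3900 and 3947 to 2259 and 4131 (diet, contralateral), from 786 and 482 to 1166 and 24 (contralateral against no-tumor, Chow), from 427 and 529 to 158 and 1333 (the same, HFD) and from 1657 and 1657 to 77 and 3150 (interaction with tumor bearing). No label ties a number to an animal. Between peritumoral and contralateral libraries, same-numbered ones correlated at -0.066 to 0.295 on Chow, where 1 of 4 correlated best with its own number, and at -0.133 to 0.375 on HFD, where 3 of 4 did. Since 1 of the 4 HFD pairs was below 0, the numbers were not taken as pairs, and this is a hint from the data only. With the replicate block mt-Nd6 was the gene added on HFD (-0.27 ± 0.08, edgeR adjusted p = 0.0451). The depth allows no comparison of mt-Co2 or of the 9 tRNAs with 1 to 24 counts in all, and mt-Nd3 rests on at most 14 counts per library.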

Other observations

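Lars2, the mitochondrial leucine-tRNA ligase of the nucleus, differed between diets in no-tumor fat, at 156.7 ± 91.8 CPM on Chow and 25.37 ± 4.49 on HFD (log2 -2.66 ± 0.56, edgeR adjusted p = 0.0167, n = 4 and 4). The nuclear copies that the matrix holds were counted at low levels only. Gm13340 had 18 to 48 counts per library, Gm10222, the copy of mt-Nd4l, had 2 counts in all, and both were taken as they stand, with no comparison made.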
